A study of Drosophila melanogaster with 33 samples.

Results

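The dpr and DIP genes encode a network of cell surface proteins of the immunoglobulin superfamily. Dpr proteins were named after defective proboscis extension response, and the Dpr-interacting proteins (DIPs) bind them in a selective pattern, so that neurons carrying a given DIP meet neurons carrying its Dpr partners. Different neuron types carry different combinations, and in the fly visual system, mushroom body and neuromuscular junction the pairs are known for their part in synaptic partner choice, synapse growth and cell survival. All 21 dpr genes (dpr1 to dpr21) and 11 DIP genes (DIP-alpha to DIP-lambda) were taken, 32 of the 13968 protein-coding genes of the annotation. Peaks of chromatin accessibility were assigned to a member where they overlapped its gene body or the 1000 bp upstream of it. After merging overlapping peaks of all 33 libraries there were 487 such elements among the 36210 of the genome. Of these 487 elements, 380 lay in introns, 57 in exons, 34 within 250 bp of a transcript start and 16 upstream, and none was shared by a pair of members.

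The libraries were ATAC-seq (Assay for Transposase-Accessible Chromatin) of cells sorted from dissociated adult Drosophila brains. Clock neurons were GFP+ DAPI- cells of flies heterozygous for ClkGAL4 and UAS-GFP-NLS, the driver being active in nearly all clock neurons, and non-clock cells were the GFP- DAPI- cells, a mixture of all other neurons and glia. Wild-type flies with this genotype were collected in a 12 h light and 12 h dark cycle (LD) or in constant darkness (DD) after it, and per01 flies, which lack a functional period gene and have no behavioural rhythm, only in DD. Both genotypes carried the same driver and reporter. There were 4 libraries of wild-type clock neurons at ZT0 (lights on), 4 at ZT12 (lights off), 3 at CT24 (subjective dawn) and 3 at CT36 (subjective dusk), 4 of per01 clock neurons at CT24 and 4 at CT36. Non-clock cells had 4 wild-type libraries in LD, 3 wild-type in DD and 4 per01 in DD, and no collection time in their labels. Each library pooled many brains, and the age of the flies was not given. The per01 genotype was written per01/Y, which names males, whereas the wild-type label gave no sex and the study's text describes brains of both sexes. Strain background, sex and the mutation can therefore not be told apart in the comparison of genotypes, and LD and DD can not be told apart from any difference between the collections.

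Accessibility is given in CPM (counts-per-million), the number of sequence tags at the summit of a called peak scaled to the tags of the library. A library without a peak is written as no call and was placed in tests at the lowest number of tags called in that library (1.47 to 2.63 CPM in clock neurons and 1.18 to 1.55 CPM in non-clock cells) and differences against groups without calls depend on that floor. With missing calls placed instead at the local limit of detection, some were smaller or lost. An element called in only 1 of the groups compared entered the test through that group and lay at the floor in the other. Its difference in the main fit is therefore given as a description without a p. The counts of elements that passed include such elements. The 22 clock libraries held 4.18 to 17.0 M tags (median 9.57) and the 11 non-clock libraries 16.7 to 36.2 M (median 23.8), with 16504 to 25793 peaks per library and 141 to 256 member elements. As a check of the sort, 34 of 46 tested elements of 10 clock neuron marker genes were higher in clock neurons in LD, 25 of 48 in DD and 27 of 46 in per01 (33.9%, 27.6% and 26.5% of all elements). Of these marker elements 6, 10 and 6 were lower (21.9%, 24.9% and 21.1%). At Clk, 3 of 3 were higher in LD, 1 of 4 higher and 2 lower in DD, and 1 of 3 higher and 1 lower in per01. For 7 general neuron genes, 14 of 59 were higher and 19 lower in LD, 13 and 6 of 61 in DD, and 7 and 10 of 56 in per01. Most elements of glial marker genes were lower in clock neurons (5 of 8 tested in LD, 8 of 10 in DD, 9 of 12 in per01) and 3, 1 and 1 were higher, with a summed level of 11.2 to 29.2 CPM in clock libraries against 31.2 to 59.4 CPM in non-clock libraries. Non-clock cells thus held more glial signal in every library, and its part in the differences of the dpr and DIP genes was not tested.

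The accessible sequence at 6 elements on which the results turn is shown here. The first is an intronic element of dpr6, the only member element that passed the test between subjective dawn and dusk (chr3L:10105987-10106175). It entered that test through its CT36 calls alone, with CT24 at the floor. The next 4 were more accessible in clock neurons in all 3 cell type comparisons, at DIP-zeta (upstream, chr2L:9072288-9072437), DIP-gamma (intron, chr3R:28940964-28941113), DIP-theta (intron, chr2L:5628685-5628834) and dpr11 (intron, chr3R:6584690-6584839). The last, in an intron of dpr3 (chr2L:2086504-2086653), was less accessible in clock neurons in all 3. Each is the RefSeq Release 6 (dm6) sequence of the plus strand, 150 bases around the summit and, for dpr6, extended to 189 bases so as to take in its E-box. Capitals mark, on either strand, CACGTG (the E-box bound by the CLOCK-CYCLE activator) and AACAAT (a Sox motif).
dpr6: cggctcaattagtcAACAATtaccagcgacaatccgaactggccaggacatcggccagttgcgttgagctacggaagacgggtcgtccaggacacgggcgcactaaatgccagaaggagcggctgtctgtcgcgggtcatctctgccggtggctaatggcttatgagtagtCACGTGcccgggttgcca
DIP-zeta: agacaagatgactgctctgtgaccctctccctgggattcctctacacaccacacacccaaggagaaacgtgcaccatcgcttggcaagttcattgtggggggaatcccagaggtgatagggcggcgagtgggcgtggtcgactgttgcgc
DIP-gamma: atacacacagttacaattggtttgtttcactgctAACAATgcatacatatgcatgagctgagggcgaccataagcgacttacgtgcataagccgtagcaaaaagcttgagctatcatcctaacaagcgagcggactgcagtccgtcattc
DIP-theta: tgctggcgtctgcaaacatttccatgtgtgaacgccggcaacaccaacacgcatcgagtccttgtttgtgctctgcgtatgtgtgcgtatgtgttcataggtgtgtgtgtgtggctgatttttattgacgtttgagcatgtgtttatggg
dpr11: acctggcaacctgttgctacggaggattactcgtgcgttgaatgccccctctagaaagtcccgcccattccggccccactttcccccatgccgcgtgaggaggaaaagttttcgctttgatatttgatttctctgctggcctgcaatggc
dpr3: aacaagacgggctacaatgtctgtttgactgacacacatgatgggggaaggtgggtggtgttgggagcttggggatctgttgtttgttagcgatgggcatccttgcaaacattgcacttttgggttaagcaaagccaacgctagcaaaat

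The transcript start was the most accessible element, by its mean level over all 33 libraries with those without a call counted as 0, in 27 of the 32 genes. The start of dpr12, the partner of DIP-delta, was the most accessible, with a mean of 43.9 CPM in clock neurons and 44.7 CPM in non-clock cells. The least accessible on this scale, by their highest element, were DIP-iota (1.65 and 3.02 CPM over the same cells, with 14 of 22 clock libraries called) and DIP-lambda (1.23 and 3.63 CPM, with 8 of 22 called). The most elements were found in dpr6 (79 in 165 kb) and dpr8 (68 in 140 kb), whereas DIP-lambda held 1 in 379 kb. Of the 487 member elements, 60 (12.3%) were called in all 33 libraries, against 25% of all elements, and 87 (17.9%) were called in 1 library, against 11.6%.

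To ask whether these genes were accessible in a cell type-dependent manner, clock neurons were compared with non-clock cells. In wild type in LD, 276 member elements were tested. Of these, 139 (50.4%) were more accessible in clock neurons and 56 (20.3%) less, by limma at an adjusted p of 0.1. Over all 23186 elements tested the shares were 33.9% and 21.9%, 55.8% in either direction. These shares mix transcript starts with elements away from them, which differed (below). The median log2 difference of the members was 0.36 and that of all elements 0.04. In DD, 106 of 259 member elements were higher and 46 lower (27.6% and 24.9% of all 23554, 52.5% together), with medians of 0.16 and -0.04. In per01 in DD, 93 of 238 were higher and 50 lower (26.5% and 21.1% of all 21385, 47.7% together), with medians of 0.07 and -0.02. In a sorted pool, fewer cells with an open element and a lesser opening in each cell can not be told apart. With libraries scaled by their total tags the split in LD was 127 higher and 80 lower. The floor for missing calls was higher in clock neurons than in non-clock cells, and its part in these shares was not tested. With missing calls at the local limit of detection, the LD medians were 0.37 for members and 0.05 for all elements.

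The higher elements lay mostly away from transcript starts. In LD, 108 of 202 tested intronic elements and 22 of 28 exonic elements were higher in clock neurons, and 39 and 2 were lower. Of the 33 transcript starts, 6 were higher and 11 lower. Over the genome, 45.3% of elements away from a start were higher and 21.7% lower, and 13.2% of those at a start were higher and 22.1% lower. For the counts by family, pair and gene here and below, the shares of all tested elements were 33.9% higher and 21.9% lower in LD. They were 27.6% and 24.9% in DD, and 26.5% and 21.1% in per01. These shares mix elements at and away from a start, whereas most member elements lay away from one. In LD the share away from a start, 45.3% higher, is the closer reference. The part of element class in the member counts was not tested. The DIP genes, the binding partners of the Dprs, had 54 of 77 tested elements higher and 8 lower in LD (42 and 12 of 72 in DD, 33 and 10 of 59 in per01). The dpr genes had 85 of 199 higher and 48 lower in LD (64 and 34 of 187 in DD, 60 and 40 of 179 in per01). The 56 other genes of synaptic recognition that were examined, such as those of the beat, side, Dscam and teneurin families, had 290 of 693 higher and 165 lower in LD, 259 and 150 of 678 in DD, and 205 and 152 of 608 in per01.

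Across the 3 comparisons, which share no libraries, 202 member elements were tested in each. Of these, 65 were higher in clock neurons in all 3 (19.3% of all elements tested in each), 25 were lower in all 3 (11.1%), 39 passed in none and 0 passed in opposite directions. By gene, 9 of the 65 were in dpr6, 7 in DIP-gamma, 6 in dpr11 and 5 each in DIP-theta and dpr12.

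**Figure D1:**
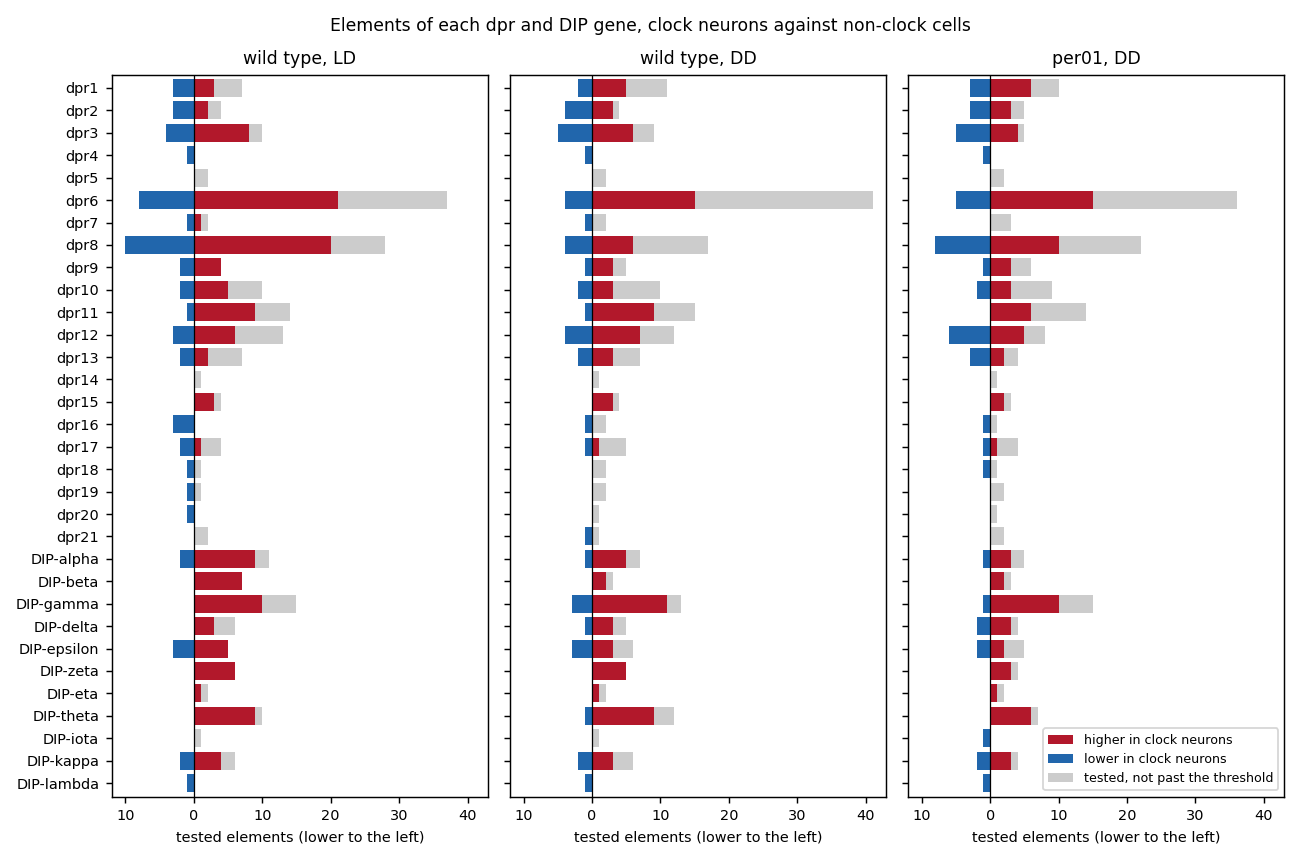
Elements of each of the 32 genes tested between clock neurons and non-clock cells, in wild type in LD, wild type in DD and per01 in DD. Bars to the right count elements higher in clock neurons (red) and elements not past the threshold (grey), and bars to the left count those lower (blue). DIP-zeta and DIP-beta are among the genes with no blue bar in any panel. Among those with no red bar are dpr4, dpr16 and DIP-lambda.

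Among the DIPs, DIP-zeta was the most one-sided. All 6 of its tested elements were higher in clock neurons in LD, all 5 in DD and 3 of 4 in per01. Its upstream element (chr2L:9072153-9072768), whose sequence is the second shown above, was called in all 22 clock libraries, at 5.47, 7.57 and 11.1 CPM (lowest, median, highest) in LD, 7.47, 9.99 and 15.0 CPM in DD and 5.5, 9.91 and 11.1 CPM in per01. In non-clock cells it was at 2.60 and 2.62 CPM with 2 libraries without a call in LD, at 2.42, 2.46 and 2.15 CPM in DD, and at 2.29 CPM with 3 libraries without a call in per01. Every clock library lay above every non-clock library. The log2 difference was 2.09 ± 0.199 (SE, adjusted p = 4.57e-07) in LD, 2.16 ± 0.184 (adjusted p = 6.36e-06) in DD and 2.30 ± 0.186 (adjusted p = 5.31e-08) in per01. Its transcript start differed far less, by 0.19 in LD (adjusted p = 0.009).

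DIP-gamma and dpr11 encode a receptor pair known from yellow R7 photoreceptors and their Dm8 targets. Together they had 19 of 30 tested elements higher and 1 lower in LD, 20 and 4 of 32 in DD, and 16 and 1 of 30 in per01. The shares of all elements were 33.9% and 21.9% in LD, 27.6% and 24.9% in DD, and 26.5% and 21.1% in per01. An intronic element of DIP-gamma (chr3R:28940334-28941377), which holds a Sox motif near its summit, was at 6.66, 7.45 and 9.97 CPM (lowest, median, highest) in clock neurons in LD, at 5.87, 6.79 and 7.74 in DD and at 4.47, 6.84 and 8.22 in per01. Non-clock cells had 1.71, 2.05, 2.36 and 2.27 CPM in LD, 1.72, 2.06 and 1.98 CPM in DD, and 2.12 and 2.63 CPM with 2 libraries without a call in per01. The groups did not overlap, and the log2 differences were 1.95 ± 0.147 (adjusted p = 4.68e-08), 1.82 ± 0.141 (adjusted p = 3.72e-06) and 1.64 ± 0.21 (adjusted p = 6.93e-06). The log2 difference of its transcript start was 0.17 in LD (adjusted p = 0.114) and 0.22 in DD (adjusted p = 0.0377).

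The intronic element of dpr11 (chr3R:6584284-6585047) also overlaps the annotated long non-coding RNA gene lncRNA:CR46131. It was at 3.59, 4.52 and 7.64 CPM (lowest, median, highest) in clock neurons in LD, at 3.92, 5.14 and 6.31 in DD and at 5.53, 6.27 and 9.57 in per01. Non-clock cells reached at most 2.37 CPM, and 5 of their 11 libraries had no call. The log2 differences were 1.68 ± 0.188 (adjusted p = 2.41e-06), 1.40 ± 0.196 (adjusted p = 0.000173) and 1.96 ± 0.178 (adjusted p = 1.8e-07). Every clock library was above every non-clock library here too.

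DIP-theta, which binds several Dprs, had 9 of 10 tested elements higher and 0 lower in LD, 9 and 1 of 13 in DD, and 6 and 0 of 7 in per01. Its intronic element (chr2L:5628532-5628994) was called in all 22 clock libraries, at 2.69 to 7.22 CPM (median 4.20), and in none of the 11 non-clock libraries. Against the floor of the libraries without a call, the log2 differences were 1.54, 1.94 and 1.45 in LD, DD and per01. Its transcript start also rose, by 0.41 in LD (adjusted p = 0.000564), 0.48 in DD (adjusted p = 0.000353) and 0.26 in per01 (adjusted p = 0.0169).

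DIP-alpha is the receptor for Dpr6 and Dpr10 in the medulla and at motor axon terminals. The 3 genes had in LD 35 of 70 tested elements with higher accessibility in clock neurons and 12 with lower, 23 and 7 of 65 in DD, and 21 and 8 of 58 in per01. Taken singly in LD, DIP-alpha had 9 of 13 higher and 2 lower, dpr6 21 of 45 and 8, and dpr10 5 of 12 and 2. DIP-beta, which binds Dpr8, Dpr9 and Dpr21, had all 7 tested elements higher in LD, 2 of 3 in DD and 2 of 3 in per01. Its transcript start rose in all 3, by 0.73 (adjusted p = 0.000129), 0.64 (adjusted p = 0.000346) and 0.40 (adjusted p = 0.00265). With its 3 partners it had 31 of 53 elements higher and 12 lower in LD, 11 and 6 of 32 in DD, and 15 and 9 of 42 in per01. Over all elements the shares were 33.9% and 21.9% in LD, 27.6% and 24.9% in DD, and 26.5% and 21.1% in per01.

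DIP-delta and Dpr12, a pair known from the mushroom body, had 9 of 22 elements higher and 3 lower in LD, 10 and 5 of 22 in DD, and 8 and 8 of 20 in per01. Among all elements 33.9% were higher and 21.9% lower in LD, 27.6% and 24.9% in DD, and 26.5% and 21.1% in per01. Elements of dpr12 moved in both directions within the gene. An intronic element (chr2R:5815214-5815846) was called in all 22 clock libraries, at 3.04 to 7.90 CPM (median 5.48), and in 1 of 11 non-clock libraries, at 2.21 CPM. Non-clock libraries lay at the floor apart from that one, and the log2 differences were 1.91 ± 0.199, 1.80 ± 0.217 and 2.04 ± 0.172. Another intronic element (chr2R:5810989-5811747) was at 5.97, 7.82, 7.07 and 7.68 CPM in wild-type non-clock cells in LD, at 5.32, 6.06 and 5.59 CPM in DD and at 4.96, 7.06, 5.41 and 6.94 CPM in per01. In clock neurons it was called in 10 of 22 libraries, at 2.06 to 5.67 CPM. It fell by 1.58 ± 0.227 in LD (adjusted p = 2.99e-05), by 1.32 ± 0.201 in DD (adjusted p = 0.00033) and by 1.00 ± 0.255 in per01 (adjusted p = 0.00378), and in per01 the groups overlapped. With peaks matched by summits within 150 bp the LD and DD differences were -0.564 and -0.805 and did not pass (adjusted p = 0.35 and 0.162).

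Lower accessibility in clock neurons was most marked at dpr3. Its intronic element (chr2L:2086411-2086789), the last sequence shown, was at 8.04, 8.02, 8.02 and 10.2 CPM in non-clock cells in LD, at 7.24, 7.37 and 7.19 CPM in DD and at 7.53, 7.01, 4.95 and 7.36 CPM in per01. In clock neurons it was called in 12 of 22 libraries, at 2.05 to 3.52 CPM. It fell by 1.98 ± 0.165 (adjusted p = 1.1e-07), 1.46 ± 0.147 (adjusted p = 1.68e-05) and 1.5 ± 0.178 (adjusted p = 3.14e-06), with no overlap between the cell types. Yet 8 of 14 tested dpr3 elements were higher in LD and 4 lower, and the genes with no higher element in any of the 3 comparisons had few elements. They were dpr4 (1 of 1 element lower in each comparison), DIP-lambda (1 of 1 lower in each), dpr16 (3 of 3 lower in LD, 1 of 3 in DD, 1 of 2 in per01), and dpr5, dpr14, dpr18, dpr19, dpr20, dpr21 and DIP-iota. The start of DIP-lambda had no call in any clock library in LD, and against their floor its log2 difference was -0.56. It fell by 0.74 in DD (adjusted p = 0.00481), where CT36 replicate 3 alone of the clock libraries was called, and by 0.53 in per01 (adjusted p = 0.0329). With an equal number of peaks per library it was 0.163 higher in LD and at -0.147 in DD, and passed in neither (adjusted p = 0.145 and 0.336). Its call in per01 was lost without per01 non-clock replicate 3 (adjusted p = 0.134).

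**Figure D2:**
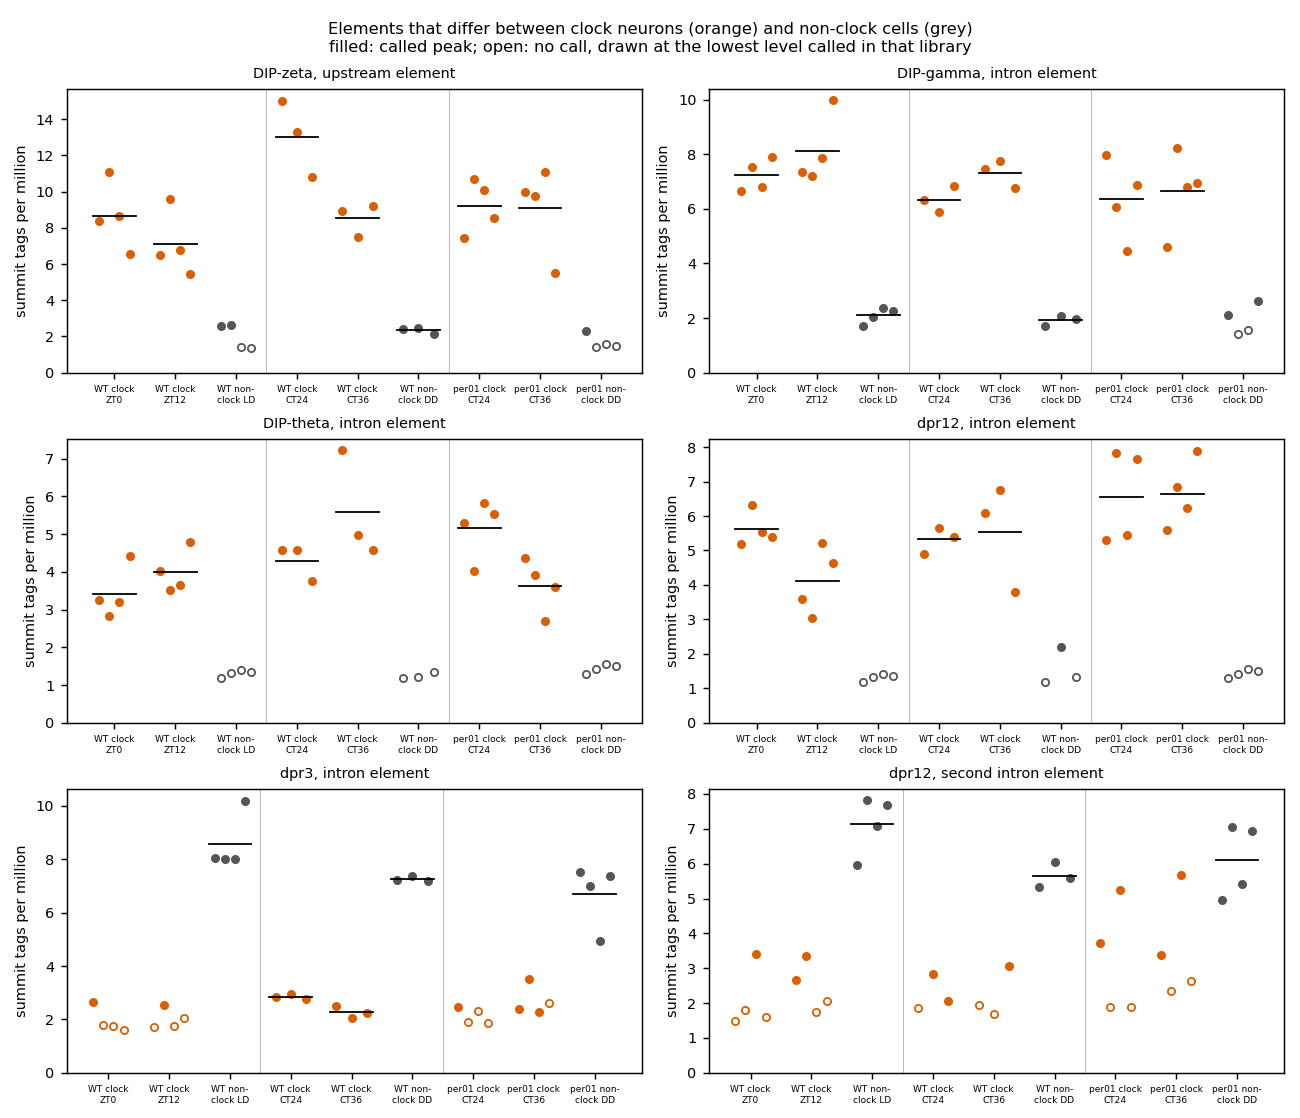
Summit level in CPM in each of the 33 libraries at 6 member elements, clock neurons in orange and non-clock cells in grey. Filled points are called peaks, open points are libraries without a call drawn at the lowest level called in that library, and bars are means of groups with a call in every library. At DIP-zeta and DIP-gamma every clock library lies above every non-clock library, with lowest clock values of 5.47 and 4.47.

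Elements called in every library of one cell type and in none of the other were rare. In the genome 130 elements (0.359%) were called in all 22 clock libraries and in none of the 11 non-clock libraries, and 3 of them were members. Besides that of DIP-theta, these were an exonic element of DIP-delta (chr3L:5431535-5431865), at 2.01 to 5.19 CPM (median 3.38), and an intronic element of dpr10 (chr3L:10179121-10179658), at 2.71 to 5.47 CPM (median 3.4), which has an E-box within 75 bases of its summit. The reverse pattern was found at 349 elements (0.964%), of which 5 were members, at dpr1, dpr3, DIP-alpha and, with 2, dpr6.

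The number of called elements per gene depends on depth, since the non-clock libraries were deeper, so it was read against all genes. In LD, DIP-zeta, dpr15 and DIP-beta had more elements in every clock library than in any non-clock library (1.44% of all genes with an element), and dpr7, dpr16 and DIP-lambda had fewer (3.04%). DIP-zeta had 5.38 ± 0.744 called elements (SD, n = 8) in clock neurons and 1.5 ± 0.577 (n = 4) in non-clock cells in LD. In DD, DIP-zeta and dpr15 had more (1.11%), and dpr6, dpr7, dpr8 and dpr11 fewer (16%). In per01, DIP-zeta had more (0.996%), and dpr6, dpr11 and dpr16 fewer (6.79%). When each library was limited to its 16504 strongest peaks, DIP-zeta kept more elements in all 3 comparisons, while dpr11 in DD and dpr6 in per01 changed from fewer to more. The separations of dpr15 and DIP-beta were lost. In LD, DIP-gamma also had more (1.84% of all genes), and dpr7, dpr16 and DIP-lambda fewer (2.7%). In DD, DIP-theta and DIP-gamma also had more (2.27%), and only DIP-lambda fewer (6.55%). In per01, DIP-theta and dpr12 also had more (1.78%), and no member fewer (3.4%).

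To ask whether accessibility of these genes followed the time of day, dusk was compared with dawn in clock neurons. In LD, 0 of 222 member elements passed the limma test between ZT12 and ZT0, and 23 had an unadjusted p under 0.05, whereas 20 of all 19486 elements passed (0.103%, 0.0359% higher and 0.0667% lower). Between CT36 and CT24 in wild type, 1 of 198 passed, higher at CT36, and 22 had an unadjusted p under 0.05. The 1 that passed entered the test through CT36 alone, with CT24 at the floor. Of all 18264 elements 116 passed (0.635%, with 0.164% higher and 0.471% lower). In per01 clock neurons 0 of 177 passed and 5 had an unadjusted p under 0.05 (0.00594% of all 16841 passed, all of it lower and 0% higher). The change from CT24 to CT36 differed between genotypes at 0 of 199 member elements and at 0% of all 17926 elements, with 13 members at an unadjusted p under 0.05.

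The element that passed lies in an intron of dpr6 (chr3L:10105821-10106225), the first sequence shown. It had no call in any of the 4 libraries at ZT0 and was at 2.56, 2.13, 3.11 and 2.87 CPM at ZT12. It had no call in the 3 libraries at CT24 and was at 3.78, 3.65 and 4.14 CPM at CT36. All 7 dusk libraries of wild type had the peak and none of the 7 dawn libraries did. Only 4 elements of the genome had this pattern (0.0138% of the 29034 called in clock neurons) and 2 had the reverse (0.00689%), none of them a member. In per01 the peak was present at both times, at 2.92, 2.14, 4.66 and 2.33 CPM at CT24 and at 3.45, 3.97 and 4.79 CPM with 1 library without a call at CT36, so that the times overlapped. None of the 11 non-clock libraries had it.

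The log2 difference of this dpr6 element between CT36 and CT24 was 1.13 ± 0.204 against the floor of CT24. With all 3 CT36 libraries called and no CT24 library called, the element entered this test through CT36 alone. Its passing rests on the floor given to CT24 and is a description only. Between ZT12 and ZT0, with no ZT0 library called, the log2 difference was 0.63 ± 0.199 and did not pass. In per01 it was 0.27 ± 0.266 and did not pass. The difference between the genotypes in this change was -0.85 ± 0.353 (adjusted p = 0.89), so it was not shown to differ between them. The element no longer passed without CT24 replicate 1, 2 or 3 or CT36 replicate 1 or 2, and still passed without CT36 replicate 3. It also did not pass with an equal number of peaks per library (0.503) or when elements called in at least 1 library were tested. Without CT36 replicate 3, 9 member elements passed. Against the floor of the non-clock cells its log2 difference in clock neurons was 0.75, 1.06 and 1.03 in LD, DD and per01. Its E-box starts 96 bases after the summit, and a window of 405 bases around the summit, the length of this element, held an E-box in 7.37% of all elements and in 9.45% of member elements.

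**Figure D3:**
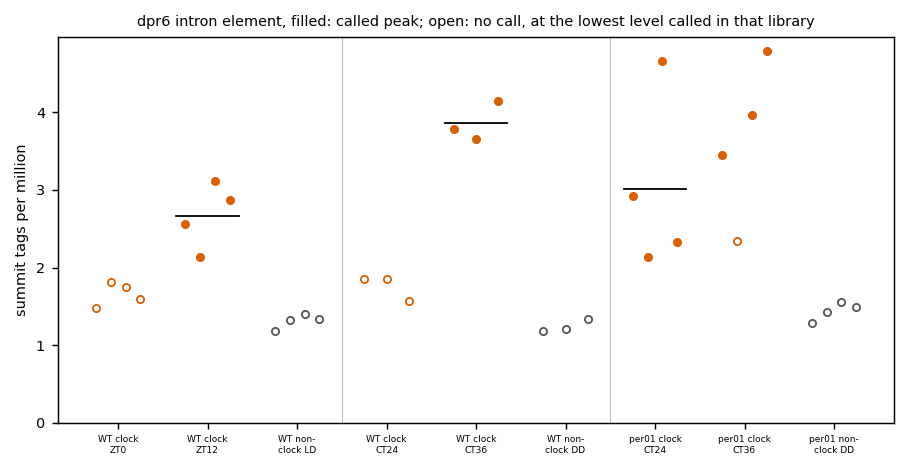
Summit level in CPM at the intronic dpr6 element in each library of the 9 groups, with filled points for called peaks and open points for libraries without a call, drawn at the lowest level called there. Wild-type clock neurons have the peak at ZT12 (2.13 to 3.11) and CT36 (3.65 to 4.14) and lack it at ZT0 and CT24, per01 clock neurons have it at both times, and non-clock cells lack it.

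Next, DD was compared with LD in wild type. In clock neurons 21 of 217 member elements were higher in DD and 39 lower (9.28% and 12.7% of all 19397, 22% together). The lower ones were mostly on the X chromosome, where 0 of 45 members were higher and 29 lower, and off it 21 of 172 were higher and 10 lower. The X chromosome as a whole was lower in DD (3.86% of its elements higher and 49.5% lower, median -0.32, against 0.01 elsewhere). The study's text describes brains of both sexes, without a sex ratio for either regime. A difference in that ratio can not be told apart from the regime for the X-linked members. In non-clock cells 10 of 233 members were higher and 21 lower (7.71% and 8.33% of all 23023, 16% together), with 0 of 42 higher and 20 lower on X, where 5.36% of all elements were higher and 34.8% lower. When X elements were scaled on their own, 10 members were higher and 16 lower in clock neurons, and 7 and 5 in non-clock cells. The non-clock count of 31 depended on single libraries. It was 18 and 11 without DD replicate 1 or 2, and 52, 20, 18 and 20 without LD replicate 1, 2, 3 or 4.

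DIP-alpha, on X, had 9 of 9 tested elements lower in DD in clock neurons and 4 of 8 in non-clock cells. Its intronic element (chrX:3548853-3549414) was at 4.01, 5.12 and 6.42 CPM (lowest, median, highest) in clock neurons in LD, and in 5 of 6 clock libraries in DD at 1.98 to 3.26 CPM. It fell by 1.13 ± 0.161 (adjusted p = 0.000309), more than the X chromosome's median. In non-clock cells it was at 2.54, 2.86, 3.11 and 2.48 CPM in LD and at 1.72 and 1.73 CPM with 1 library without a call in DD, and fell by 0.75 ± 0.172 (adjusted p = 0.024), a call lost with an equal number of peaks per library (-0.167, adjusted p = 0.296). With X scaled on its own, 3 of the 9 elements of DIP-alpha, 1 of 5 of DIP-beta and 2 of 28 of dpr8 were still lower in clock neurons. In non-clock cells that left 3 of 28 elements of dpr8 and 1 of 2 of dpr18. The number of called elements of DIP-alpha, DIP-beta and dpr8 was lower in every DD than in any LD clock library (0.304% of all genes, with 0.0351% in the other direction). In DIP-beta it was 7.38 ± 1.51 (SD, n = 8) in LD and 2.33 ± 0.516 (n = 6) in DD. In non-clock cells dpr8 had fewer in every DD library (0.356%) and DIP-epsilon more (2.27%). With an equal number of peaks per library, only DIP-alpha had fewer in clock neurons (0.138%), whereas the non-clock libraries had fewer in DD for DIP-alpha, dpr8 and DIP-beta (1.13%) and more for no member.

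**Figure D4:**
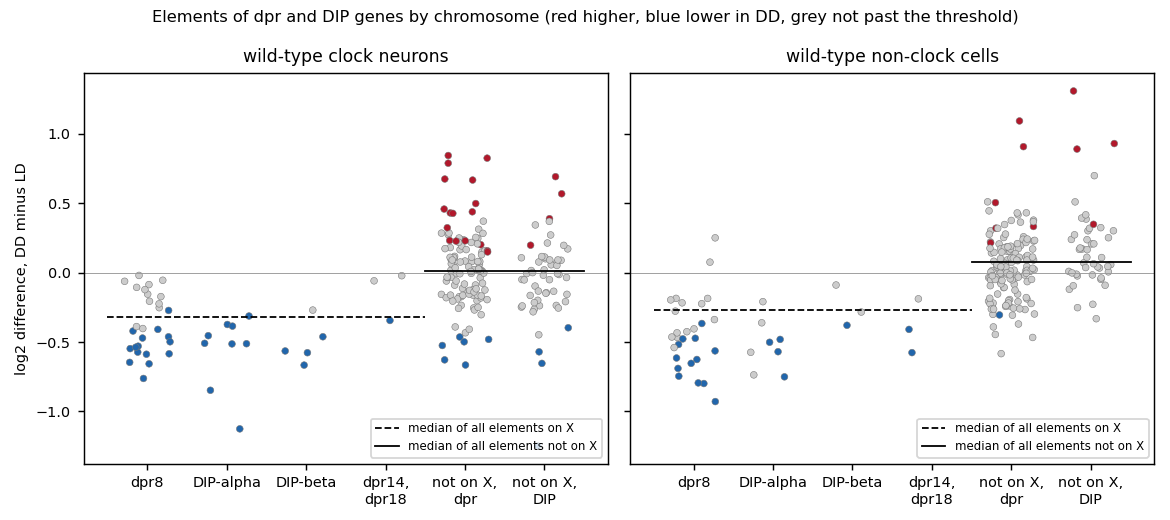
Log2 difference between DD and LD of each tested member element in wild-type clock neurons (left) and non-clock cells (right), by gene for members on the X chromosome and by family for the others. Red and blue points passed the test and grey points did not, and black lines are medians of all elements on X (dashed, -0.32 and -0.27) and off X (solid, 0.01 and 0.08). The points of dpr8, DIP-alpha and DIP-beta that passed are all blue.

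Off the X chromosome the lowest fitted difference was at an exonic element of DIP-kappa (chr2L:13689364-13690001) in clock neurons. It was at 2.83, 2.92, 4.37 and 3.80 CPM at ZT0 and at 5.38, 4.02, 4.76 and 6.29 CPM at ZT12, and was not called in any of the 21 DD libraries of either genotype and cell type. The log2 difference against the floor of the DD libraries was -1.25 ± 0.168, and it held an E-box in the 150 bases around its summit. Its ZT12 and ZT0 values overlapped, and wild-type non-clock cells in LD had it in 2 of 4 libraries, at 2.66 and 1.93 CPM. Rises were seen at an intronic element of dpr17 (chr3R:12099457-12099939), with 3.14 to 8.45 CPM in clock neurons in LD and 5.62 to 14.5 CPM in DD, by 0.84 ± 0.194 (adjusted p = 0.00742). In non-clock cells its log2 difference was -0.30 ± 0.0984 (adjusted p = 0.0799), a call lost without DD replicate 1, 2 or 3 or LD replicate 2, 3 or 4 (adjusted p = 0.112 to 0.229), with peaks matched by summits (0.138) and with one fit over all 33 libraries (0.661). The difference between cell types in this change was 1.14 on the log2 scale with an adjusted p of 0.131. Over all members, 0 of 262 differed between the cell types in this change, 41 had an unadjusted p under 0.05, and 0.636% of all 22471 elements passed (0.214% higher and 0.423% lower). An intronic element of DIP-gamma (chr3R:28936918-28937369) had no call in the 4 non-clock libraries in LD, was at 3.55, 3 and 3.23 CPM in DD, a log2 difference of 1.31 ± 0.155 against the floor, which was 0.342 with missing calls at the local limit of detection and then did not pass (adjusted p = 0.16). It was also called in all 4 per01 non-clock libraries, at 3.12 to 4.09 CPM.

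Finally, per01 was compared with wild type in DD, with the same wild-type libraries as above. In clock neurons 20 of 199 member elements were higher in per01 and 12 lower (7.69% and 6.87% of all 17926, 14.6% together). This became 31 and 8 with scaling by total tags, and 21 in all without per01 CT24 replicate 1 or without replicate 4. In non-clock cells 12 of 239 were higher and 3 lower (2.19% and 2.68% of all 22875, 4.87% together). The 15 elements became 9 without wild-type non-clock replicate 2 in DD.

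All 12 elements that were higher in per01 non-clock cells lay in dpr8, the X-linked gene of a DIP-beta partner, of 26 tested there. In clock neurons 8 of 19 dpr8 elements were higher and 0 lower. The X chromosome as a whole was not shifted between genotypes (median -0.02 in both cell types, with 7.89% of its elements higher and 9.28% lower in clock neurons, and with shares of 4.1% and 3.38% in the non-clock cells). Of the 8 and 12 elements, 5 were the same, 62.5% and 41.7% of each list. The log2 differences were 0.50 to 1.18 in clock neurons and 0.68 to 1.32 in non-clock cells. The 12 lay 30.7 to 76.6 kb from its start, and the 8 of clock neurons 31.2 to 126 kb from it.

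The element of dpr8 with the highest fitted difference in both cell types was intronic (chrX:14398688-14399037). It was called in all 8 per01 clock libraries, at 4.27, 3.68, 3.30 and 4.21 CPM at CT24 and 4.69, 4.11, 3.97 and 7.66 CPM at CT36, and in all 4 per01 non-clock libraries, at 2.99, 3.30, 2.82 and 3.47 CPM. None of the 6 clock and 3 non-clock libraries of wild type in DD had a call. In LD, however, wild type had it in 3 of 8 clock libraries, at 2.62 to 3.55 CPM, and in 3 of 4 non-clock libraries, at 1.57 to 1.76 CPM. Against the floor of wild type in DD, the log2 differences were 1.18 ± 0.158 and 1.32 ± 0.157. Called dpr8 elements numbered 27.2 ± 1.5 (SD, n = 4) in per01 non-clock cells and 20.3 ± 2.31 (n = 3) in wild type in DD without overlap (0.25% of all genes), and 28.5 ± 1.29 (n = 4) in wild type in LD. In clock neurons they numbered 19.9 ± 3.91 (n = 8) in per01, 15.0 ± 2.19 (n = 6) in wild type in DD and 29.8 ± 5.09 (n = 8) in LD, where the genotypes overlapped in DD. With an equal number of peaks per library, clock neurons had 13 to 17 in per01 and 9 to 12 in wild type in DD, without overlap (0.0877% of all genes). Wild type in LD then had 11 to 25.

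**Figure D5:**
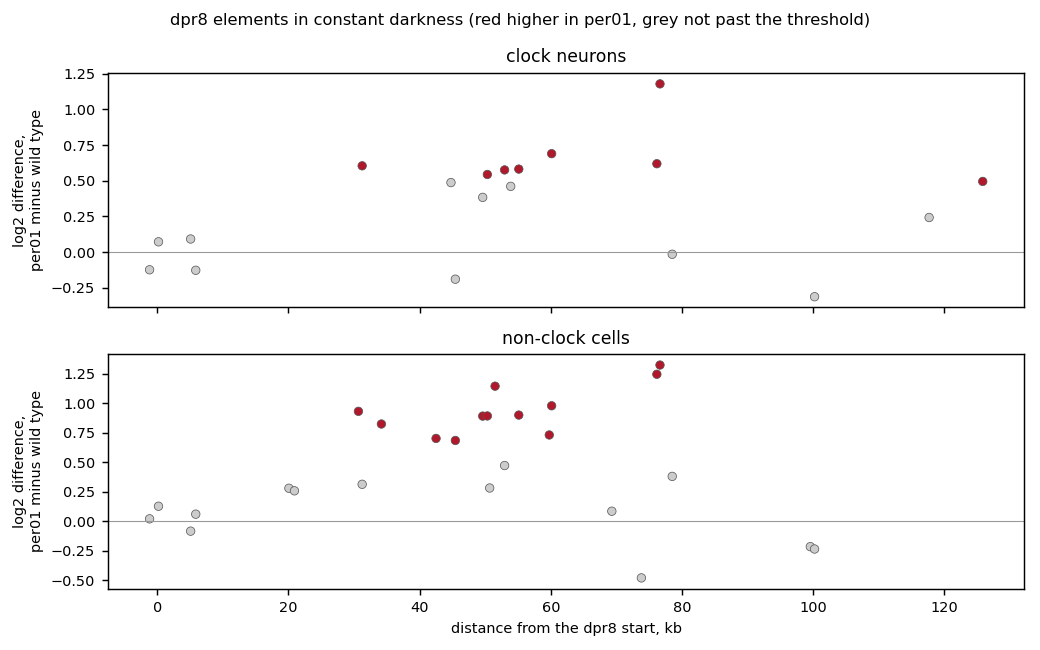
Log2 difference between per01 and wild type in DD at each tested dpr8 element, against its distance from the gene's start in kb, in clock neurons (top) and non-clock cells (bottom). Red points passed the test and grey points did not. The red points of non-clock cells lie between 30.7 and 76.6 kb.

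Of the other members, 12 elements were higher in per01 clock neurons and 12 lower. Of the higher ones 4 were in dpr6 and 2 in dpr10, among them an intronic element of dpr10 (chr3L:10170231-10170390) that was called in 6 of 8 per01 clock libraries, at 2.8 to 5.93 CPM, and in none of the 6 wild-type ones in DD, with a log2 difference of 0.87 against the floor. In non-clock cells the 3 lower elements were in dpr13, dpr17 and dpr18. An intronic element of dpr17 (chr3R:12108788-12109219) was at 3.05 to 4.8 CPM in all 6 wild-type clock libraries in DD and was called in 2 of 8 per01 clock libraries, at 2.30 and 2.61 CPM. In non-clock cells it was at 4.90, 5.52 and 4.91 CPM in wild type and 2.36, 3, 2.48 and 3.05 CPM in per01. The genotypes did not overlap in either cell type, and it fell by 0.81 ± 0.141 (adjusted p = 0.00119) and 0.89 ± 0.147 (adjusted p = 0.0074). An intronic element of dpr13 at the annotated start of lncRNA:CR44419 (chr2R:18005558-18005736) was at 4.69 to 5.77 CPM in all 6 wild-type clock libraries in DD and in 1 of 8 per01 clock libraries, at 4.40 CPM. It fell by 1.17 ± 0.175 (adjusted p = 0.000298). The transcript start of DIP-lambda rose in per01 clock neurons by 0.74 (adjusted p = 0.00301), and none of the 58 tested DIP elements passed in non-clock cells by limma, where 10 had an unadjusted p under 0.05.

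Short motifs near the summits were described over all members. The E-box CACGTG was within the 150 bases around the summit in 21 of 487 member elements (4.31%) and in 3.65% of all elements. Among members higher in clock neurons in any cell type comparison it was in 11 of 171 (6.43%), against 4.06% of all such elements. Among members lower in any of them it was in 4 of 79 (5.06%), against 3.62% of all lower elements. The VP-box TTANGTAA, bound by VRI and PDP1, was in 8 members (1.64%) and 1.64% of all elements, and the Sox motif AACAAT in 66 (13.6%) and 12% of all elements. Both strands were searched, and no motif overlaps another in its letters. Base composition was close, with a median GC content of 50.7% in member windows and 49.3% in all.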

How the data were processed

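ATAC-seq peak lists of 33 libraries (22 of clock neurons and 11 of non-clock cells) were used. Per the labels and methods, the authors trimmed reads with cutadapt 4.1, aligned them to dm6 with Bowtie2 2.4.5, processed them with SAMtools 1.15.1 and Picard 2.27.4 to remove duplicates, and called narrow peaks per library with MACS2 2.2.7.1. The deposited values are a fold enrichment over background (ratio) at the summit and its −log10 p and −log10 q, and the deposited score column was not used.

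Summit tags were solved as whole numbers from the fold enrichment and −log10 p of each peak (all within 0.02 of a whole number), and total tags from the background rate. The lowest −log10 q of a called peak was 3.01. Peaks of all libraries sharing at least 1 bp were merged into elements, each taking the highest summit of a library, and matched to genes of Ensembl release 115. All element ends lay within the chromosomes of RefSeq Release 6. log2(tags + 1) values, scaled by the median of ratios, were fitted with limma 3.58.1 (R 4.3.3, trend) over all elements called in at least as many of the libraries compared as the smaller group held, with Benjamini-Hochberg adjustment and a threshold of 0.1. Time of day was a covariate in the regime and genotype comparisons of clock neurons. A peak needed 11 to 43 tags to be called, and limits from depth cover counting error only. Of the 487 member elements, 334 were tested at least once and 153 never. The filter passes elements through the group where they are called.

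The fit was tested on counts simulated for elements called in every library compared. Of simulated 2-fold changes, 94% were found for the CT comparison of wild type, and 59% for its difference between genotypes. Elements with missing calls were not simulated, so these rates do not cover them. The spread between simulated libraries was a fixed setting, not estimated from these libraries. The rates are therefore not the share of real 2-fold changes that these tests would find. Scripts ran in Python 3.11.15 with scipy 1.17.1, pandas 2.3.3, matplotlib 3.10.9 and numpy 2.4.6.

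The members, gene lists, partner pairs and tests were chosen with earlier results of these data known. Elements named are, in each comparison, all members past the threshold where there were 8 or fewer, otherwise the 4 largest and 4 smallest differences, and each gene's highest element. The dpr6, DIP-delta and dpr10 call patterns, scaling X on its own, the 12 dpr8 elements by position and the test between cell types of the change with regime were added after the data were seen. Libraries were labelled as repeats. The study's text describes 4 biological replicates per condition and time, whereas the wild-type DD groups held 3 libraries here. It does not state whether clock neuron and non-clock libraries came from the same brains. The p-values measure the spread between these samples.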

Additional observations from a re-analysis of the deposited data

Results flagged for a closer look

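In 6 of 139 groups of 4 to 10 libraries, 1 library stood apart from the rest of its group, where chance gives about 5% of groups. The third replicate of per01 clock neurons at CT24 had 141 member elements called, the fewest of its group and of all 33 libraries. At the dpr3 element that was low in clock neurons, replicate 4 of wild-type non-clock cells in LD was at 10.2 CPM and the others at 8.02 to 8.04. At the dpr11 element overlapping lncRNA:CR46131, replicate 4 of per01 clock neurons at CT36 was at 9.57 CPM and the others at 5.53 to 6. An intronic dpr8 element (dpr8 14422151 by its start) was at 2.47 CPM in replicate 1 of per01 clock neurons at CT24 and at 3.21 to 3.32 in the others. In per01 non-clock cells the dpr2 element starting at 10933097 was at 4.17 CPM in replicate 2 (others 4.61 to 4.66), and the transcript start of dpr13 at 17.7 CPM in replicate 3 (others 19.7 to 20).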

How the results depend on the processing

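Numbers of member elements past the threshold changed with the settings as follows. In the order LD, DD and per01, the cell type comparisons gave 195, 152 and 143. With an equal number of peaks per library there were 128 in LD and 92 in DD, and with only elements called in every library compared 58, 60 and 40. With elements called in at least 1 library there were 295, 229 and 251, and with one fit over all 33 libraries 236 in DD and 258 in per01. Leaving out 1 library gave 182 to 202, 139 to 161 and 130 to 147. Between ZT12 and ZT0 the 0 became 1 with missing calls at the local limit of detection, 5 with one fit and 1 with elements called in every library, and 0 to 1 with 1 library left out. Between CT36 and CT24 the 1 became 2 with equal lists, 8 at the local limit, 7 with elements called in every library, 2 with a −log10 q of at least 5, 3 with scaling by total tags, 0 with elements called in at least 1 library, and 0 to 9 with 1 library left out. In per01 the 0 became 1 with one fit. Between DD and LD the 60 in clock neurons became 26 with X scaled on its own and 27 with elements called in every library, and 43 to 59 with 1 library left out. The 31 in non-clock cells became 12 with X scaled on its own, 16 with peaks matched by summits, and 11 to 52 with 1 library left out. Between genotypes the 32 in clock neurons became 54 with one fit and 17 with elements called in every library, and 21 to 36 with 1 library left out, and the 15 in non-clock cells 9 to 21. The difference between cell types in the change with regime gave 0, and 2 with equal lists, 1 at the local limit, 9 with one fit, 2 with elements called in every library, 7 with at least 1 library, and 0 to 6 with 1 library left out.

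Same-numbered libraries did not all deviate together in any comparison (lowest correlations -0.219 to 0.0277), and the main fits did not pair them. Between ZT12 and ZT0 their median correlation was 0.218, against -0.0276 for different numbers. In per01 between CT36 and CT24 it was 0.124 against -0.0323, and in wild type -0.0126 against 0.00673. Whether same-numbered libraries were prepared together was not tested. A fit with the replicate block gave 203, 150 and 147 for the cell types and 0 for each comparison of times. Between CT36 and CT24 this was 0 in place of 1, and the dpr6 element did not pass. The block fit gave 40 and 20 for the regimes, 27 and 13 for the genotypes, and 2 for the difference between cell types. Named elements reversed in 4 cases. The start of DIP-lambda was at 0.163 and the dpr6 element starting at 9993335 at 0.0925 in LD with equal lists (both lower in clock neurons in the main comparison), dpr12 5850051 was at 0.0183 in DD at the local limit, and the start of dpr13 was at -0.245 in per01 with peaks matched by summits. None of these 4 passed there, with adjusted p = 0.145, 0.446, 0.92 and 0.754. Of all settings of the counts, 228 of 282 stayed within 1.5 times the main count. The cause of these shifts was not tested. At the depth of the clock libraries, elements under 1.47 to 2.63 CPM were not detectable.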
